A study of Mus musculus with 12 samples.

Results

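Car1 and Car2, the genes of carbonic anhydrases 1 and 2, were followed across 4 groups of differentiating G1E-ER4 cells. They are 2 of the 55487 gene rows in the deposited expression files, found by their symbols. They were selected on their measured levels in these same libraries, chosen by the opposite directions in which Car1 and Car2 differ between cells given both treatments and control cells. For that reason, every comparison of Car1 or Car2 that uses the doubly treated libraries is given below as a description, without a test. G1E-ER4 is a line of mouse erythroid progenitors without functional GATA1, the master transcription factor of red cell development, and carries GATA1-ER, a form of the factor that β-estradiol switches on. All cells, controls included, grew with erythropoietin and Kit ligand, were given siRNA 2 times 24 h apart, and received 100 nM β-estradiol with the second siRNA. The groups were a control siRNA (siControl), a control siRNA with 25 µM DTPA (siControl plus DTPA), an siRNA against ZIP10 (siZIP10), and the ZIP10 siRNA with 25 µM DTPA (siZIP10 plus DTPA). DTPA is a chelator that binds zinc and was added at the start of differentiation; ZIP10 is a zinc importer of the plasma membrane encoded by Slc39a10. Cells were harvested 24 h later, and RNA was sequenced from a stranded poly(A) library kit. The labels call the 3 libraries of a group biological replicates, all of 1 line, and name neither a second siRNA sequence nor a group with zinc added back.

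Carbonic anhydrases are zinc enzymes that convert carbon dioxide and water to bicarbonate and a proton, and back. Red cells hold both cytosolic forms: carbonic anhydrase 2 is among the fastest enzymes known, and carbonic anhydrase 1 is slower and accumulates to a high level in mature human red cells. In circulating red cells they work with the anion exchanger band 3, which moves the bicarbonate across the membrane in exchange for chloride. A zinc ion in the active site is required for catalysis in both, whereas the transcripts measured here say nothing of how much zinc the proteins held.

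The values given for siControl plus DTPA replicate 3 were those of siZIP10 replicate 1 in all 55487 rows, and that library was left out, which leaves 11 libraries, 2 of them siControl plus DTPA. The files give TPM, the transcripts of a gene among every 1000000, a level already divided by gene length, so that levels of different genes can be set side by side. The depth recovered from these values was 19.63 to 24.69 M reads a library, 1 M being 1000000. Slc39a10, the target of the siRNA, was at 2.31 to 2.78 TPM in siControl, 20.3 to 22.0 TPM in siControl plus DTPA, 0.507 to 0.837 TPM in siZIP10 and 4.93 to 5.36 TPM in siZIP10 plus DTPA. The doubly treated libraries also differed in make-up: mitochondrial rRNA took 1.43% to 1.45% of the summed TPM, against 0.262% to 0.421% in the other 8 libraries, and nuclear protein-coding genes took 77.3% to 79.6% against 82.6% to 84.1%. The defining erythroid marker Hbb-bs, a beta-globin gene, was at 20180 TPM or more in every library. The summed markers of other blood lineages were low but higher in the doubly treated cells, though not every marker was. The 8 megakaryocyte markers summed to 57.3 to 58.5 TPM there against 16.2 to 26.7 TPM in the other groups, with Ppbp among those listed at 0 in all 11 libraries. The 8 mast cell and basophil markers summed to 20.9 to 23.3 TPM against 0.832 to 2.60 TPM, most of it Hdc, with Mcpt8, Cma1, Fcer1a and Ms4a2 listed at 0. The 8 myeloid markers summed to 5.86 to 6.80 TPM against 2.33 to 5.16 TPM, most of it Cd68. Mpo, Elane, Itgam, Ly6g and S100a8 were listed at 0. The 8 lymphoid markers summed to 2.38 to 3.25 TPM against 0.296 to 1.61 TPM, most of it Cd79a. Cd8a, Il7r and Ms4a1 were among those listed at 0. The part of these shifts in the Car1 and Car2 values of the doubly treated cells was not tested.

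Car1 (ENSMUSG00000027556.15) lies on the minus strand of mouse chromosome 3, at chr3:14766216-14808368 in mm10, and spans 42.2 kb with 1248 bases of exon and 3 annotated transcripts, all coding. Car2 (ENSMUSG00000027562.12) lies on the plus strand at chr3:14886273-14900770, spans 14.5 kb with 2422 bases of exon, and has 3 transcripts, of which 2 are coding. The 2 genes point away from each other and their starts are 77.9 kb apart. Car3, a muscle and fat isoform, sits in the interval on the plus strand, with its start 22.8 kb before that of Car2. Car13, another cytosolic isoform, starts 244.5 kb before Car2 on the other side of Car1, and beyond it lie E2f5, a cell cycle transcription factor of the E2F family, and Lrrcc1, a centrosomal protein. No annotated gene overlaps Car2. The processed pseudogene Gm16399 lies inside Car1 on the same strand, shares no exon base with it, and was above 0 in 4 of 11 libraries with a mean of 0.232 TPM.

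**Figure D1:**
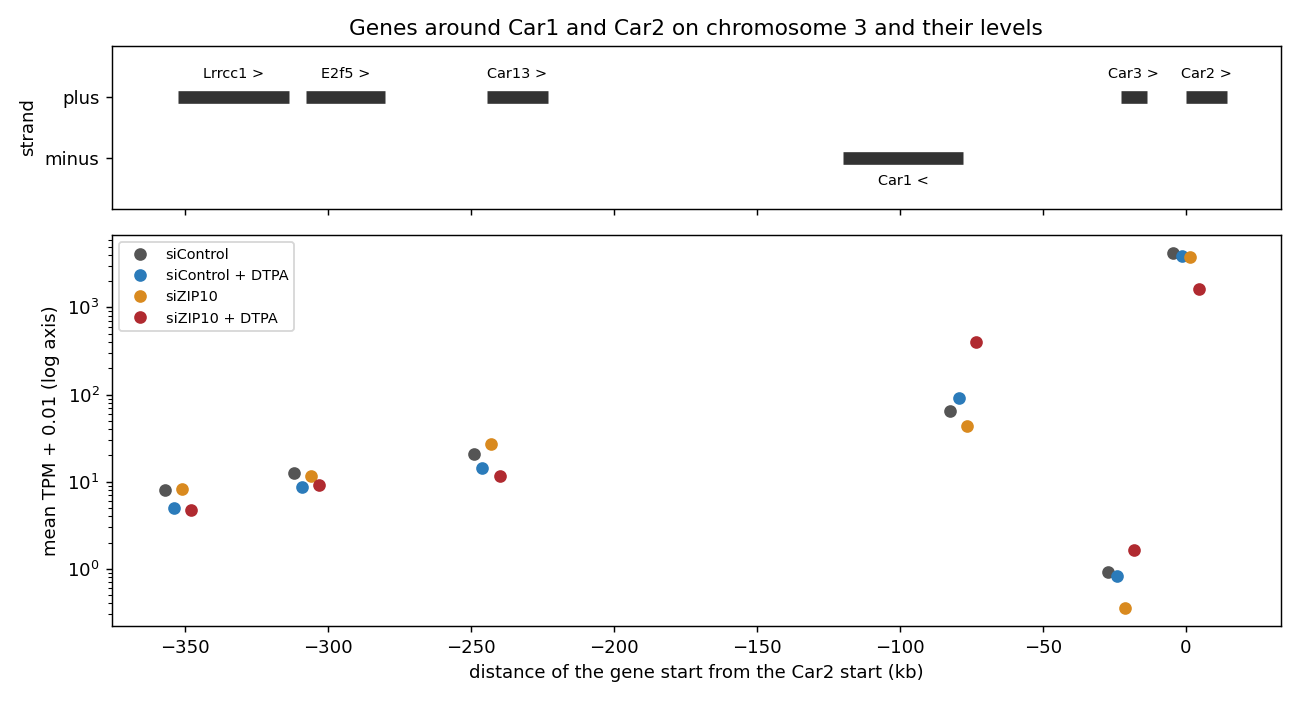
Genes from Lrrcc1 to Car2 on chromosome 3, placed by distance from the Car2 start in kb (top, by strand), and the mean TPM of each gene in each of the 4 groups on a log axis after adding 0.01 (bottom, n = 3 libraries, or 2 for siControl plus DTPA; points are set apart sideways for reading). Car1 spreads from 43.2 to 395.7 TPM over the groups, with the doubly treated cells on top, whereas Car2 spreads from 1635 to 4257 TPM with the doubly treated cells at the bottom.

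Car1 was a gene of moderate level in control cells, somewhat higher with DTPA alone, lower with the ZIP10 siRNA alone, and several times higher with both. It measured 67.1, 60.0 and 66.7 TPM in the 3 siControl libraries, 96.8 and 84.8 TPM in the 2 siControl plus DTPA libraries, 42.3, 36.1 and 51.3 TPM in the siZIP10 libraries, and 382.6, 396.9 and 407.5 TPM in the siZIP10 plus DTPA libraries. No library of one group fell within the range of another. The group means were 64.6 ± 3.98 (SD, n = 3), 90.8 ± 8.53 (n = 2), 43.2 ± 7.66 (n = 3) and 395.7 ± 12.5 TPM (n = 3), so that the order from low to high was siZIP10, siControl, siControl plus DTPA and last the doubly treated cells. These levels rest on 306 to 890 reads per library outside the doubly treated group and 3525 to 4120 reads within it. In bulk RNA, fewer cells that make a transcript and less of it per cell cannot be told apart.

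With DTPA alone, Car1 rose to 1.41 times the siControl mean, a log2 difference of 0.48 (SE 0.12, 95% interval 0.22 to 0.74, adjusted p = 0.0106 in limma). This call rests on 1 library: without siControl plus DTPA replicate 1, the higher of the pair, the difference was 0.39 with an adjusted p of 0.1 in limma. Of the 11379 genes tested, 28.8% were called in this comparison, 9.98% as higher and 18.8% as lower. With the ZIP10 siRNA alone, Car1 fell to 66.9% of the siControl mean, a log2 difference of -0.58 (SE 0.10, 95% interval -0.81 to -0.35, adjusted p = 0.00206 in limma). Here 30.6% of all genes were called, 13.1% higher and 17.5% lower. Both comparisons use the siControl libraries, as does the comparison that chose the genes, and are not independent of it.

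The means of the 2 single treatments can be set against each other without any library of the choosing comparison. The SE and adjusted p still come from the fit of all 4 groups, which includes those libraries. Car1 was 2.1 times as high in siControl plus DTPA as in siZIP10, a log2 difference of 1.06 (SE 0.12, adjusted p = 0.00016 in limma). In this comparison 20.8% of genes were called, 8.41% higher and 12.4% lower with DTPA. That background of 2371 genes is itself less firm than the others, with 1369 genes called without siControl plus DTPA replicate 1 and 1260 without its replicate 2. The Car1 call held in all leave-one-out fits, with differences of 0.94 to 1.19, and when only the groups compared were fitted. Keeping the repeated library under its siControl plus DTPA label ended all 3 Car1 calls, with adjusted p in limma of 0.764 for DTPA alone, 0.105 for siZIP10 alone and 0.291 between them. The same values then stood in both groups, and 0 of all tested genes were called between them. That fit therefore cannot decide whether Car1 differed between the 2 single treatments.

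In the doubly treated cells, Car1 was at 6.13 times its siControl mean, a log2 difference of 2.60. Relative to siZIP10 alone the level was 9.15 times as high (log2 difference 3.18), and relative to siControl plus DTPA it was 4.36 times as high (2.11). In the comparison of the doubly treated cells with siControl, 66.6% of all tested genes were called, 26.7% higher and 39.9% lower, a background from which nothing is read for genes that this comparison chose. The ZIP10 siRNA thus went with a lower Car1 level in cells without DTPA and with a higher one in cells with DTPA: all 3 siZIP10 libraries lay below all 3 siControl libraries, and all 3 siZIP10 plus DTPA libraries lay above both siControl plus DTPA libraries.

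Car2 was one of the most abundant transcripts of the control cells, slightly lower with either single treatment, and far lower with both. It measured 4317.3, 4291.2 and 4163.1 TPM in siControl, 3814.0 and 3881.1 TPM in siControl plus DTPA, 3810.0, 3880.2 and 3831.8 TPM in siZIP10, and 1644.8, 1601.9 and 1658.1 TPM in siZIP10 plus DTPA. The 2 single treatments overlapped each other, and both lay wholly below siControl and wholly above the doubly treated group. The means were 4257 ± 82.5 (SD, n = 3), 3848 ± 47.5 (n = 2), 3841 ± 36.0 (n = 3) and 1635 ± 29.3 TPM (n = 3). Between 27836 and 79543 reads per library lay behind each value.

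**Figure D2:**
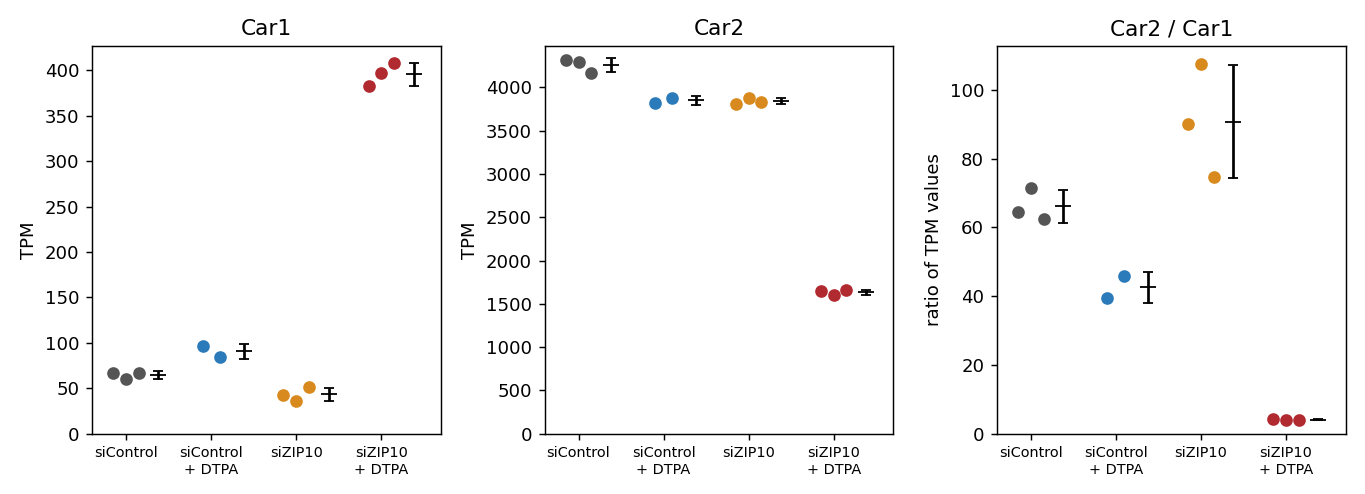
Car1 (left) and Car2 (middle) in TPM and the ratio of Car2 to Car1 (right) in each of the 11 libraries, by group; each point is 1 library, and the bar beside the points is the group mean with its SD. The 3 doubly treated libraries stand at 382.6 to 407.5 TPM for Car1, above all others, at 1601.9 to 1658.1 TPM for Car2, below all others, and at a ratio of 4.04 to 4.30.

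With DTPA alone Car2 fell to 90.4% of the siControl mean, a log2 difference of -0.15 (SE 0.03, adjusted p = 0.00166 in limma). With the ZIP10 siRNA alone it fell to 90.2%, also a log2 difference of -0.15 (SE 0.02, adjusted p = 0.000775 in limma). These comparisons share the siControl libraries with the one that chose Car2, and 28.8% and 30.6% of all genes were called in them. The DTPA call was lost after quantile normalization, where the difference was again -0.15 but the adjusted p 0.0618 in limma. The 2 single treatments did not differ in Car2 beyond their spread: the log2 difference between them was 0.00 with a 95% interval of -0.05 to 0.06 (adjusted p = 0.964 in limma). In the same comparison Car1 was called and differed by 1.06.

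In the doubly treated cells, Car2 was at 38.4% of its siControl mean (log2 difference -1.38). The level was 42.6% of that with siZIP10 alone (-1.23) and 42.5% of that in siControl plus DTPA (-1.23). Among all genes ordered by level within a library, Car2 stood at places 14 to 16 in siControl, 16 to 18 in siControl plus DTPA, 17 to 18 in siZIP10 and 65 to 66 in the doubly treated libraries. Car1 stood at places 2624 to 2872, 1833 to 2015, 3257 to 4109 and 331 to 350 in the same groups. The 2 genes therefore moved toward each other in rank, though Car2 stayed above Car1 in all 11 libraries.

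Here TPM is scaled by the length of all annotated exons of a gene. The ratio of Car2 to Car1 TPM is therefore one of read densities, not a count of molecules. It was 62.4 to 71.5 in siControl (mean 66.1) and 39.4 to 45.8 in siControl plus DTPA (42.6). In siZIP10 it was 74.7 to 107.6 (90.7), and in the doubly treated cells 4.04 to 4.30 (4.13). No 2 groups overlapped in this ratio, and its spread was widest in siZIP10, where Car1 was lowest. Exact permutation tests of the log2 ratio gave p = 0.2 for DTPA alone against siControl, 0.1 for siZIP10 alone against siControl and 0.2 between them. With 2 or 3 libraries a group the test can give no lower p, so it cannot decide whether the ratio differs. Car1 made up 1.49% of the summed TPM of all 16 carbonic anhydrase genes in siControl, 2.30% in siControl plus DTPA, 1.11% in siZIP10 and 19.3% in the doubly treated cells. Car2 made up 97.9%, 97.2%, 98.1% and 79.7% of it. The higher Car1 level did not offset the lower Car2 level: the whole family summed to 4346 ± 82.9, 3957 ± 39.2, 3914 ± 31.2 and 2052 ± 33.1 TPM in the 4 groups.

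For neither gene was the log2 difference with both treatments the sum of those with each alone. For Car1, the single treatments pointed in opposite directions and summed to -0.10, whereas the doubly treated cells differed from siControl by 2.60, which leaves 2.69 beyond the sum. For Car2, the single treatments pointed the same way and summed to -0.29, against -1.38 observed, which leaves -1.09. These excess values involve the libraries that chose the genes and carry no test. For scale, 32.4% of all genes were called for the interaction, which is the same quantity tested.

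Of the other 14 carbonic anhydrase genes, 2 passed the filter of a mean of 1 TPM, Car13 and Car5b. Car4, Car9, Car10, Car12 and Car14 were listed at 0 in all 11 libraries, and Car3, Car5a, Car6, Car7, Car8, Car11 and Car15 were above 0 in at least 1 library but below the filter. Car3, which lies between Car1 and Car2, measured 0.551 to 1.24 TPM in siControl, 0.779 to 0.853 in siControl plus DTPA, 0.109 to 0.565 in siZIP10 and 1.11 to 1.93 in siZIP10 plus DTPA. The doubly treated range of Car3 overlapped that of siControl, and its level was far below those of its neighbours throughout.

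Car13 encodes a cytosolic isoform, and its order over the groups ran opposite to that of Car1. It measured 20.9, 22.6 and 19.2 TPM in siControl, 14.2 and 14.5 TPM in siControl plus DTPA, 27.9, 25.7 and 27.7 TPM in siZIP10, and 12.2, 11.5 and 11.1 TPM in siZIP10 plus DTPA. No 2 groups overlapped: siZIP10 was highest, then siControl, then siControl plus DTPA, and the doubly treated cells lowest. In limma, Car13 fell with DTPA alone (log2 difference -0.51, adjusted p = 0.000359), rose with the ZIP10 siRNA alone (0.36, adjusted p = 0.00155) and fell with both (-0.80, adjusted p = 7.22e-07). It was lower in siControl plus DTPA than in siZIP10 (-0.87, adjusted p = 1.97e-05 in limma), where Car1 was higher. Keeping the repeated library as labelled ended the Car13 calls with DTPA alone, with siZIP10 alone and between them (adjusted p = 0.501, 0.211 and 0.291 in limma), and the DTPA difference was then -0.21. In that fit 0 of all tested genes were called between the 2 single treatments.

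Car5b encodes a mitochondrial isoform and lies on the X chromosome, at chrX:163976822-164027997 on the minus strand. It measured 1.70, 1.70 and 1.65 TPM in siControl, 3.03 and 2.71 TPM in siControl plus DTPA, 2.09, 1.76 and 2.36 TPM in siZIP10, and 6.00, 5.98 and 6.06 TPM in siZIP10 plus DTPA. The doubly treated libraries were the highest, as for Car1, but the siZIP10 libraries lay above siControl and not below it. Car5b rose with DTPA alone (log2 difference 0.53, adjusted p = 0.00521 in limma) and with both treatments (1.39, adjusted p = 4.17e-07 in limma). Without siControl plus DTPA replicate 1 the Car5b call with DTPA alone was lost (0.47, adjusted p = 0.0521 in limma). With the ZIP10 siRNA alone the difference was 0.19 (adjusted p = 0.184 in limma), and siControl plus DTPA against siZIP10 gave 0.34 (adjusted p = 0.0592 in limma). All of these rest on 65 to 316 reads per library.

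**Figure D3:**
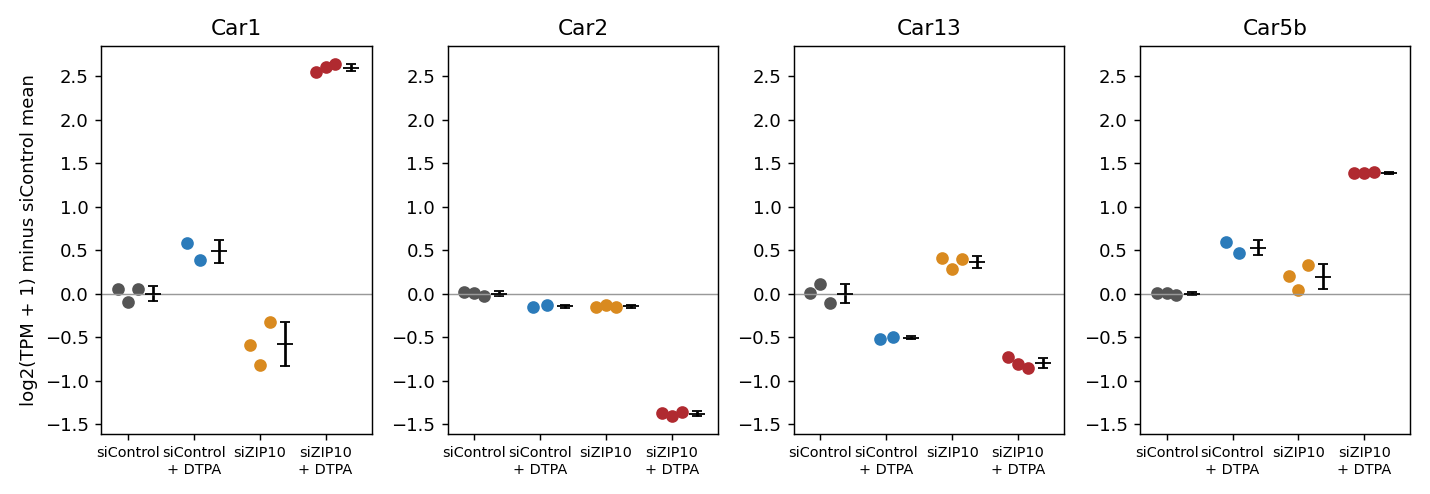
The 4 carbonic anhydrase genes that passed the filter on low TPM, each as log2(TPM + 1) less its siControl mean; points are libraries, and the bar beside them is the group mean with its SD. Car1 and Car5b are highest and Car2 and Car13 lowest in the doubly treated cells, and with siZIP10 alone Car1 lies below siControl while Car13 lies above it.

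Farther along the chromosome, the levels were lower in both groups with DTPA. Lrrcc1 had means of 7.93, 4.98, 8.14 and 4.70 TPM in siControl, with DTPA, with siZIP10 and with both, and fell with DTPA alone (-0.57, adjusted p = 0.00208 in limma) and with both (-0.64, adjusted p = 0.00011). E2f5 had means of 12.7, 8.65, 11.5 and 9.19 TPM and likewise fell with DTPA alone (-0.51, adjusted p = 0.00322 in limma) and with both (-0.43, adjusted p = 0.00133). The differences with the ZIP10 siRNA alone were 0.04 for Lrrcc1 (adjusted p = 0.800) and -0.14 for E2f5 (adjusted p = 0.291), in limma. With the repeated library kept as labelled the Lrrcc1 call with DTPA alone was lost (-0.40, adjusted p = 0.0566 in limma).

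Genes that move bicarbonate, protons, lactate or gas across membranes formed a list of 18, of which 8 passed the filter. With both treatments 1 of these 8 was higher and 5 were lower, with a median log2 difference of -0.33 against -0.08 for all tested genes. Those 6 calls stand beside a background of 66.6% of genes called, 26.7% higher and 39.9% lower. With DTPA alone 1 was higher and 2 lower (background 28.8% called), and with siZIP10 alone 2 were higher and 3 lower (background 30.6%). Slc4a1, the gene of band 3, which exports the bicarbonate that Car2 makes, had means of 445.0, 233.8, 304.3 and 22.5 TPM in siControl, with DTPA, with siZIP10 and with both. It fell in all 3 comparisons with siControl (-0.93 with DTPA, -0.55 with siZIP10, -4.24 with both, the highest adjusted p being 3.69e-06 in limma). Like Car2 it was lower with each single treatment and lowest with both, but by a wider margin in each. Slc16a1, a carrier of lactate with a proton, fell with DTPA (-0.56, adjusted p = 2.99e-05 in limma) and with both (-1.23, adjusted p = 2.22e-09). Slc4a2, the widely expressed relative of band 3, rose with both treatments (0.42, adjusted p = 3.3e-05 in limma). Rhag, a Rhesus-associated gas channel, rose with siZIP10 alone (0.29, adjusted p = 0.00382 in limma) and differed by -0.07 with both (adjusted p = 0.315). The water channel gene Aqp1, a red cell protein in the mature cell, was listed at 0 in all 11 libraries.

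Car1 and Car2 share their zinc requirement with other cytosolic enzymes, 14 of which were listed and 11 tested. With both treatments 3 of the 11 were higher and 6 lower, against 66.6% called among all genes, and the median log2 difference of -0.09 was near the -0.08 of all genes. With DTPA alone none was higher and 2 were lower (28.8% of all genes called), and with siZIP10 alone 3 were higher and 1 lower (30.6%). Alad, the zinc enzyme of the second step of heme synthesis, had means of 514.0, 315.1, 347.1 and 64.2 TPM in siControl, with DTPA, with siZIP10 and with both. It fell in all 3 comparisons with siControl (-0.70, -0.57 and -2.98, the highest adjusted p being 1.86e-06 in limma). Among other called members, with both treatments Sord, sorbitol dehydrogenase, fell by 0.31 and Sod1, the copper and zinc superoxide dismutase, by 0.25, and Lta4h, leukotriene A4 hydrolase, rose by 0.32 and Mpi, mannose phosphate isomerase, by 0.29 on the log2 scale in limma.

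Erythroid transcription factors and nuclear receptors govern red cell genes such as these, and 12 of 14 listed were tested. With both treatments 5 were higher and 5 lower, against 66.6% called among all genes. With DTPA alone 4 were higher and 2 lower (28.8% of all genes called), and with siZIP10 alone none was higher and 3 were lower (30.6%). Gata1 had means of 2067, 1458, 1552 and 1020 TPM in siControl, with DTPA, with siZIP10 and with both, and fell with DTPA (-0.50), siZIP10 (-0.41) and both (-1.02, adjusted p = 2.19e-09 in limma). Reads of the GATA1-ER construct and of the cell's own Gata1 gene cannot be told apart in these values. Klf1, an erythroid activator, fell with siZIP10 (-0.22, adjusted p = 0.00616 in limma) and with both (-0.29, adjusted p = 0.000345), and differed by 0.07 with DTPA alone (adjusted p = 0.406). With the repeated library kept as labelled the Klf1 call with siZIP10 alone was lost (adjusted p = 0.0502 in limma). Thra, a thyroid hormone receptor whose viral relative v-ErbA is known to repress Car2 in chicken erythroid cells, rose with both treatments (0.91, adjusted p = 1.37e-05 in limma). With DTPA alone Thra was called at 0.36 (adjusted p = 0.0348 in limma), but 6 of 21 alternatives lost that call, with an adjusted p of up to 0.171. Myb, a progenitor factor that is switched off as red cells mature, had means of 1.23, 1.83, 1.24 and 8.40 TPM and rose with both treatments (2.08, adjusted p = 6.17e-08 in limma). Gfi1b, a repressor in erythroid cells, rose with DTPA (0.58) and with both (0.66, adjusted p = 4.22e-09 in limma).

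The 2 carbonic anhydrases can be read beside the maturation and progenitor genes. Of 15 tested erythroid maturation genes, 2 were higher and 11 lower with both treatments, with a median log2 difference of -0.52 against -0.08 for all genes, of which 26.7% were called higher and 39.9% lower. With DTPA alone 3 were higher and 2 lower (28.8% of all genes called), and with siZIP10 alone 3 were higher and 3 lower (30.6%). The alpha-globin gene Hba-a1 fell by 1.49 and the mitochondrial iron importer Slc25a37 by 1.55 with both treatments. Reads of Hba-a1 may be divided with its near-identical copy Hba-a2. The beta-globin gene Hbb-bs went the other way and rose with DTPA alone (0.45), with siZIP10 alone (0.29) and with both (0.32). For each of these Hbb-bs calls, 2 of 21 alternatives lost it. Alas2, the erythroid enzyme that starts heme synthesis, rose by 0.22 with both (adjusted p = 3.1e-05 in limma), but was at -0.03 after quantile normalization. Of 6 tested progenitor genes, 4 were higher and 1 was lower with both treatments, with a median of 1.02, and 2 were higher and 1 lower with either treatment alone, beside the same backgrounds. Kit, the stem cell factor receptor, had means of 14.5, 20.6, 16.3 and 57.3 TPM in siControl, with DTPA, with siZIP10 and with both, and rose with DTPA (0.48, adjusted p = 0.000751 in limma) and with both (1.91, adjusted p = 1.17e-09). Gata2, which GATA1 replaces during differentiation, fell with siZIP10 alone (-0.26, adjusted p = 0.00135 in limma) and rose with both (0.94, adjusted p = 1.08e-08), the same pair of directions as the Car1 values. With DTPA alone Gata2 was not called, whereas Car1 was called as higher.

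**Figure D4:**
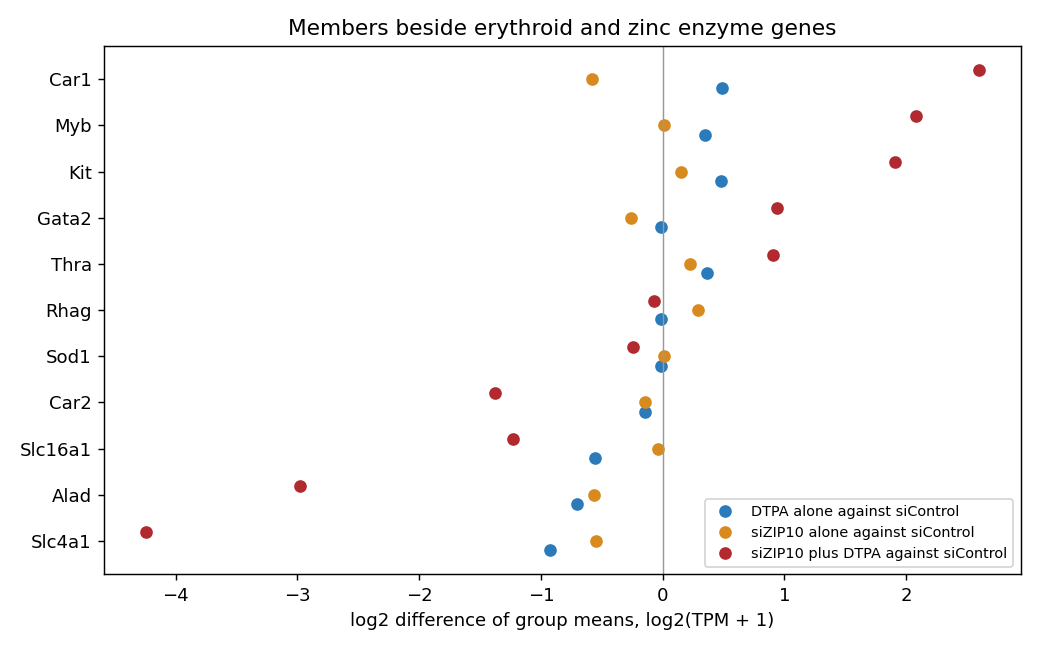
Log2 differences of group means on the log2(TPM + 1) scale for Car1, Car2 and 9 genes of the lists, each against siControl, with DTPA alone, siZIP10 alone and both. With both treatments Slc4a1 lies at -4.24, Alad at -2.98 and Car2 at -1.38, whereas Kit lies at 1.91, Myb at 2.08 and Car1 at 2.60; with siZIP10 alone Car1 lies at -0.58.

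To place each gene among all others, every gene with a mean of at least 10 TPM (7605 genes) was ranked by the root mean square difference between its profile and that of Car1 or Car2 over the 11 libraries, each profile being log2(TPM + 1) less its own siControl mean. For Car2 the 5 nearest included Larp1 (0.07), an RNA-binding protein that acts on ribosomal protein messages, Ermap (0.07), an erythroblast membrane protein, Myo18a (0.08), an unconventional myosin, and Vdac1 (0.08), the main pore of the outer mitochondrial membrane. Their means with both treatments were 101.1 TPM for Larp1, 195.0 for Ermap, 13.5 for Myo18a and 140.0 for Vdac1, against 273.8, 470.2, 34.8 and 341.9 TPM in siControl. These 4 profiles lie close to Car2, and none of the 5 remained among the nearest 5 after quantile normalization.

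For Car1 the 5 nearest lay farther off: 1700016F12Rik (0.32), Gip (0.33), the gene of a gut hormone, H1f2 (0.38), a linker histone, I830077J02Rik (0.40) and Mylk3 (0.42), a myosin kinase best known from heart muscle. Their log2 differences from siControl with both treatments were 2.1 to 2.42, below the 2.60 of Car1. With siZIP10 alone they were -0.36 for 1700016F12Rik, -0.25 for Gip, 0.01 for H1f2, -0.07 for I830077J02Rik and -0.20 for Mylk3, all nearer to 0 than the -0.58 of Car1. With DTPA alone they were 0.47 to 1.01, against 0.48 for Car1. Gip had means of 4.40, 8.39, 3.60 and 24.1 TPM over the groups, and I830077J02Rik 8.77, 12.5, 8.33 and 41.4 TPM. Both reached the mean of 10 TPM only through the doubly treated group. Nearness was computed on the same libraries that chose Car1 and Car2, and it is a description.

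**Figure D5:**
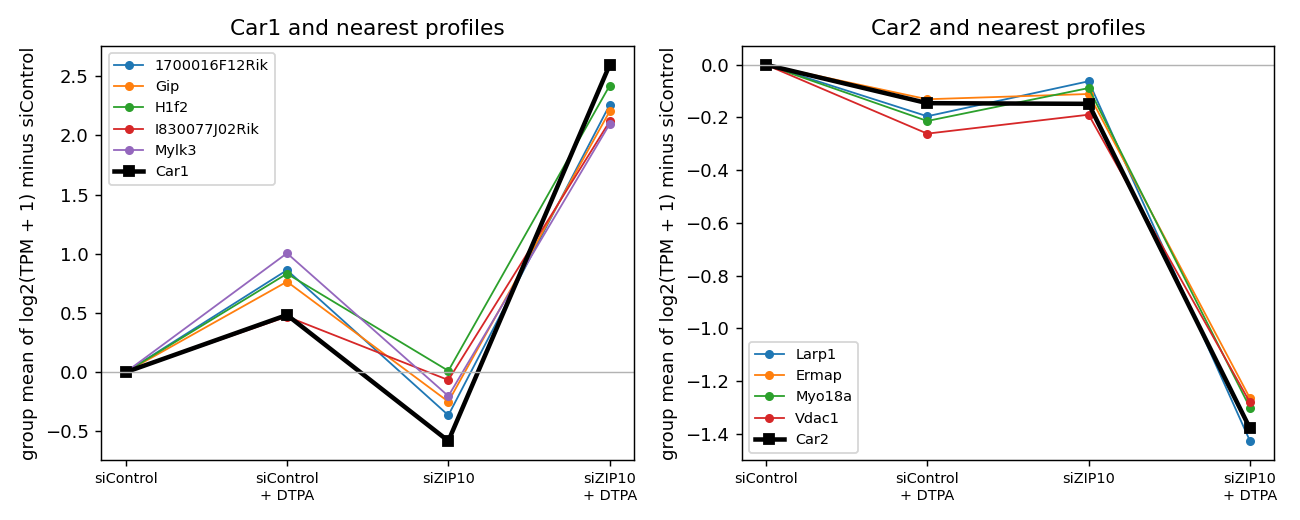
Group means of log2(TPM + 1) less the siControl mean for Car1 (left) and Car2 (right), in black, with genes from the 5 whose profiles over the 11 libraries are nearest to each, in colour (5 for Car1, 4 for Car2); lines only join the groups for reading and the vertical axes differ. The neighbours of Car2 shown lie 0.07 to 0.08 from it by root mean square difference, whereas those of Car1 lie 0.32 to 0.42 away and none goes as low as Car1 with siZIP10 alone.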

How the data were processed

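RNA-seq of 12 libraries was deposited as TPM per gene, made by the authors, with a sum of 1000000 in each library. The submitters' processing notes name mm10, HISAT2 2.1.0, Trimmomatic 0.33, edgeR, featureCounts and FastQC. What annotation was used is not given in the sources used here, nor is the handling of strand or any setting, so genes that overlap others are uncertain. Positions, exon lengths and biotypes come from GENCODE mouse release 21 (mm10), matched by symbol for 53243 of 55367 distinct names; 114 names occur more than once. Car1, Car2, Car13 and Car3 are missing from the RefSeq promoter table used here.

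TPM multiplied by exon length gave whole numbers within 0.1 read for 98.9% to 99.1% of values of up to 20 reads, which recovered the reads per library. The siControl plus DTPA replicate 3 library repeats siZIP10 replicate 1 and was left out; other pairs of libraries shared at most 0.0121% of their values above 0.

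The 11379 genes that averaged 1 TPM or more over the 11 libraries were tested as log2(TPM + 1), which understates changes of low genes. limma 3.58.1 (R 4.3.3) was fitted with a trend on mean expression and 4 group means, leaving 7 residual and 3.21 prior degrees of freedom. Each p is two-sided and adjusted over all tested genes by the Benjamini-Hochberg method within a comparison, with a threshold of 0.05; "called", "rose" and "fell" mean past it. The interaction is the DTPA difference with the ZIP10 siRNA minus that without it. The labels say biological replicates and no more, so the p-values measure the spread between these libraries. The procedure was tested on simulated data. Tables and plots used matplotlib 3.10.9, pandas 2.3.3 and numpy 2.4.6 under Python 3.11.15.

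The genes and lists were chosen with earlier results of these data known. Named were Car1, Car2, carbonic anhydrases past the filter, up to 3 called list members each way with the largest differences, members whose role bears on carbonic anhydrase, chromosomal neighbours, Slc39a10, and the 5 nearest profiles of at least 10 TPM; a few genes these rules name are not reported here. The alternatives were a pseudocount of 0.1, no filter or a filter at 5 TPM, median-of-ratios scaling, quantile normalization, rescaling to nuclear protein-coding genes, only the groups compared, a replicate block, the duplicated library kept, voom on recovered reads, and leaving out each library.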

Additional observations from a re-analysis of the deposited data

Results flagged for a closer look

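The difference that DTPA made with the ZIP10 siRNA was set against the difference it made without it, in log2 units. For Car1 this gap was 2.69; the siZIP10 libraries lay below siControl without DTPA and above siControl plus DTPA with it, and the difference was not tested because these libraries chose the gene. For the other genes the gap was tested as the interaction in limma and passed the adjusted threshold of 0.05. Among carbonic anhydrases it was 0.67 for Car5b (adjusted p = 0.0063 in limma) and -0.65 for Car13 (adjusted p = 0.00038 in limma).

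Among the genes of bicarbonate and proton handling the interaction was -2.77 for Slc4a1, -0.63 for Slc16a1, -0.35 for Rhag and 0.27 for Slc4a2. Among zinc enzymes it was -1.71 for Alad, -0.32 for Adh5, -0.29 for Sord, -0.24 for Sod1, -0.22 for Lap3, -0.21 for Npepps and 0.22 for Ide. Among transcription factors it was 1.72 for Myb, 1.07 for Lyl1, -0.67 for Nfe2 and -0.44 for Tal1. Over all tested genes, 32.4% were called for the interaction.

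Among maturation genes it was -1.69 for Hba-a2, -1.42 for Hba-a1, -1.21 for Slc25a37, -1.02 for Ermap, -0.91 for Ank1, -0.79 for Epor, -0.55 for Fech, -0.43 for Bpgm, -0.42 for Hbb-bs, -0.39 for Sptb, -0.22 for Alas2 and -0.16 for Tfrc. Among progenitor genes it was 1.28 for Kit, 1.21 for Gata2, 0.92 for Myc, 0.37 for Hhex and -0.44 for Lmo4. For Slc39a10, the target of the siRNA, it was -0.70.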

How the results depend on the processing

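Results were recomputed under up to 21 alternatives. Of the tested Car1 values, DTPA alone gave 0.12 (adjusted p = 0.764 in limma) with the repeated library kept as labelled and 0.39 to 0.58 when each library was left out, losing its call without siControl plus DTPA replicate 1. The siZIP10 value was -0.58 (adjusted p = 0.105 in limma) and DTPA against siZIP10 was 0.70 (adjusted p = 0.291 in limma) with the repeated library; the leave-one-out ranges were -0.71 to -0.46 and 0.94 to 1.19. For Car2, DTPA alone was -0.15 (adjusted p = 0.0618 in limma) after quantile normalization, and DTPA against siZIP10, which was near 0, was -0.0021 with the repeated library and -0.00999 to 0.0152 in the leave-one-out fits. Among the untested differences, Car1 with both treatments was 2.73 after quantile normalization and 2.69 after rescaling to protein-coding genes, and siZIP10 within DTPA was 2.47 with the repeated library. Car2 with both was -1.31, -1.59, -1.29 and -1.31 under median-of-ratios, quantile, protein-coding rescaling and voom; DTPA within siZIP10 was -1.17, -1.41, -1.14 and -1.17, and siZIP10 within DTPA -1.20, -1.44, -1.15 and -1.19. The scaling thus moved the size of the Car2 difference but not its direction. Replicate numbers did not pair the libraries (15 correlations of deviations, -0.06 to 0.06). With the replicate block, Car1 was at 0.54, -0.58 and 1.12 in its 3 tested comparisons and Car2 at -0.15 with each single treatment, and no call of either gene changed.

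Counts of called list members moved as follows. The other carbonic anhydrases went from 2 to 1 with DTPA alone under the 5 TPM filter and with the repeated library (1 to 2 on leaving out libraries, 1 without siControl plus DTPA replicate 1), from 1 to 0 with siZIP10 and the repeated library, and from 2 to 1 with both under the 5 TPM filter. The zinc enzymes with DTPA went from 2 to 4 under quantile normalization and 4 under voom, to 1 with the repeated library, and to 1 to 3 on leaving out libraries, with 1 without any one of siControl replicate 1 or 2 or siControl plus DTPA replicate 1 or 2. With siZIP10 they went from 4 to 2 when only the groups compared were fitted, to 1 with the repeated library and to 1 to 5 on leaving out libraries, with 1 without siControl replicate 2 and 2 without siControl replicate 1 or 3 or siZIP10 replicate 1. The transcription factors went from 6 to 3 with DTPA and from 3 to 1 with siZIP10 with the repeated library, and 3 to 6 with DTPA on leaving out libraries, 3 being without siControl plus DTPA replicate 1. The maturation genes with DTPA went from 5 to 3 without siControl plus DTPA replicate 2 (range 3 to 5), and the progenitor genes with siZIP10 from 3 to 5 under median-of-ratios, 5 under quantile normalization and 5 under voom. Genes called between DTPA and siZIP10 numbered 2371, but 0 with the repeated library, 1369 without siControl plus DTPA replicate 1 and 1260 without its replicate 2. Quantile normalization reversed 2 named genes with both treatments, Npepps (0.063) and Alas2 (-0.0255). Of the calls with DTPA alone, 34.7% were higher, against 46.8% under median-of-ratios and 51.1% under quantile normalization; with siZIP10 alone 42.9% were, against 54.3% under quantile normalization, and with both 40.1%, against 50.2% under quantile normalization. The 140 values of named genes gave 2752 recomputed values on the same side of the threshold, 178 that lost their call (63 genes and comparisons) and those 2 reversed. The cause of these shifts was not tested. Car1 rested on at least 306 reads a library and Car2 on at least 27836.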
